A study of Homo sapiens with 16 samples.

Results

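Aminoacyl-tRNA synthetases join each amino acid to the transfer RNA that brings it to the ribosome. Nuclear genes supply one set of these enzymes for translation in the cytosol and another for translation inside mitochondria, and for most amino acids the 2 enzymes come from separate genes. Several of the cytosolic enzymes are held with scaffold proteins in a multi-synthetase complex. ATF4, a transcription factor made when eIF2α is phosphorylated in the integrated stress response, is known to raise transcription of genes for amino acid synthesis, amino acid uptake and cytosolic tRNA charging. The genes described here were taken by symbol: 20 cytosolic enzymes, 16 mitochondrial enzymes (the symbols ending in 2) and the scaffold genes *AIMP1* and *AIMP2*, which makes 38 of the 25369 genes of the count table. *GARS* and *KARS*, counted with the cytosolic enzymes, each also encode the mitochondrial enzyme for glycine and lysine, and *QARS* has no separate mitochondrial counterpart.

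The libraries came from TPC1 and K1, established human lines of papillary thyroid carcinoma with wild-type p53, the former grown in RPMI and the latter in DMEM. Each line was kept for 24 h in 0.2% DMSO (vehicle), in 10 µM nutlin, which blocks the binding of MDM2 to p53, in 25 µM GSK2830371, an inhibitor of the phosphatase PPM1D, or in both drugs (the combination). Each of these 8 groups has 2 libraries of strand-specific poly(A)+ RNA, 16 in all. The TPC1 libraries are called 1 and 3 here, after the numbers of their count columns, where the sample labels have 1 and 2, and the K1 libraries are called 1 and 2. Total counts per library ran from 30789887 to 76648552 in TPC1, with the 4 libraries numbered 3 the deepest, and from 28888686 to 37161241 in K1. Levels are given below as CPM, the count of a gene scaled to the total of its library, library 1 before library 3 or 2. The study reports that its replicates were prepared independently, and the labels do not describe the cultures. With 2 libraries a group, the p-values below rest on the spread between few libraries.

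The lines kept some thyroid and epithelial markers and lacked others. *PAX8*, a transcription factor of the thyroid lineage, stood at 326 and 327 CPM in TPC1 and 792 and 749 in K1 under DMSO, and *FOXE1*, another, ran from 22.0 to 38.1 CPM over the 16 libraries. Genes of the differentiated thyroid cell were low: *TSHR* had no count in any of the 16 libraries, where 3 counts would give at most 0.104 CPM, and *NKX2-1* and *SLC5A5* reached at most 0.346 and 0.640 CPM. *TG*, which encodes thyroglobulin, was higher in nutlin than in DMSO in both lines, at 0.163 and 0.304 CPM in DMSO and 2.27 and 2.38 in nutlin in TPC1, and reached at most 6.18 CPM, in the K1 combination. *KRT8* (452 and 517 CPM in TPC1, 755 and 784 in K1) and *KRT18* (337 and 392, 399 and 451) were high, while *KRT19*, *EPCAM* and *CDH1* stayed under 0.835 CPM. Markers of blood (*PTPRC*), endothelium (*PECAM1*) and hepatocytes (*ALB*) stayed under 0.189 CPM. They are part of a list of 6 markers of other cells, and the epithelial list also has 6, not all named here. Of the other-cell list, 2 genes in TPC1 and 4 in K1 had enough counts to be tested. By the rule given below, the combination against DMSO had 1 called higher (log2 fold change 1.27) and 1 lower (-1.90) in TPC1. K1 had 0 higher and 1 lower, with a lowest value of -2.04.

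The p53 targets *CDKN1A* and *MDM2* served as a check of the drugs. *CDKN1A*, an inhibitor of the cell cycle, stood at 128 and 149.8 CPM in DMSO, 6569 and 6689 in nutlin, 167 and 183 in GSK2830371 and 11142 and 12704 in the combination in TPC1, and at 110.2 and 118 CPM in DMSO, 978 and 1046 in nutlin, 229 and 227 in GSK2830371 and 1549 and 1611 in the combination in K1. Both nutlin groups and both combination groups lay far above their vehicle libraries in each line. The log2 fold change of *CDKN1A* under nutlin was 5.61 ± 0.14 (SE; adjusted p = 7.48e-09) in TPC1 and 3.16 ± 0.06 (adjusted p = 2.08e-12) in K1, and that of *MDM2* was 4.96 ± 0.11 (adjusted p = 6.82e-09) and 3.05 ± 0.07 (adjusted p = 4.65e-12).

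Promoter windows from RefSeq (GRCh38.p14), 250 bases before to 50 bases after each start, were searched on both strands for TGATGNAA, the core of the C/EBP-ATF response element that ATF4 binds together with C/EBP proteins. The letters were found in 7 of the 16 cytosolic genes with an entry (43.8%), in 1 of the 14 mitochondrial genes with an entry (7.14%) and in neither scaffold gene. Of 25 genes of the ATF4 pathway outside the synthetases 7 held them (28.0%), and 4.46% of the 27305 symbols with a window did. The table has no entry for *DARS*, *LARS*, *VARS*, *YARS*, *AARS2* and *VARS2*. The 8 matches among the synthetases are printed because the comparison of the combination with nutlin is split by them further on, and those of *CHAC1* and *ASNS*, ATF4 target genes of glutathione breakdown and asparagine synthesis, are set beside them. Each line runs 5′ to 3′ on the strand that reads TGATGNAA, and capitals mark the match. A match is a run of letters and not a measured binding site.
AARS: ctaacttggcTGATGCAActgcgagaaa
CARS: tcctagaatcTGATGCAAccgccgcccc
GARS: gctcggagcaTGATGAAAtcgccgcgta
IARS: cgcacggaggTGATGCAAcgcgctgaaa
MARS: aatccctcgcTGATGCAAccggaaccgg
NARS: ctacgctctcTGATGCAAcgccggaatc
TARS: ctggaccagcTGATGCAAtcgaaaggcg
YARS2: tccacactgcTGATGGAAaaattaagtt
CHAC1: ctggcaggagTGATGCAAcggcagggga
ASNS: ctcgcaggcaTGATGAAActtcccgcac
These stretches lie at chr16:70289676-70289703 (*AARS*, plus strand), chr11:3057408-3057435 (*CARS*, plus strand), chr7:30594835-30594862 (*GARS*, minus strand), chr9:92293693-92293720 (*IARS*, plus strand) and chr12:57488054-57488081 (*MARS*, minus strand). The others lie at chr18:57621805-57621832 (*NARS*, minus strand), chr5:33440957-33440984 (*TARS*, minus strand), chr12:32756077-32756104 (*YARS2*, minus strand), chr15:40953252-40953279 (*CHAC1*, minus strand) and chr7:97872459-97872486 (*ASNS*, minus strand). Counted in the gene's own direction, with negative positions before its start, the first base of the match stood at -187 in *AARS*, -2 in *CARS*, -33 in *GARS*, -13 in *IARS*, -4 in *MARS*, 15 in *NARS*, 3 in *TARS*, -197 in *YARS2*, -209 in *CHAC1* and -68 in *ASNS*. Those of *CARS*, *IARS*, *MARS*, *NARS* and *TARS* thus began within 15 bases of the start, and those of *NARS* and *TARS* lie in the transcribed part.

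All 38 genes had over 0.1 CPM in at least 2 libraries of each line and were tested, among 15273 genes in TPC1 and 15900 in K1. Per kb of transcript, *IARS*, the isoleucine enzyme, stood highest of them in TPC1 under DMSO, at 170 and 164 CPM per kb, and *GARS*, the glycine enzyme, followed at 139 and 151. In K1 *GARS* (93.8 and 116 CPM per kb) and *TARS*, the threonine enzyme (108 and 114), led, and their libraries overlapped. *PARS2*, the mitochondrial proline enzyme, was lowest in both lines, at 1.92 and 2.34 CPM per kb in TPC1 and 2.68 and 2.52 in K1. For 14 amino acids with a cytosolic and a mitochondrial gene, the log2 ratio of cytosolic to mitochondrial CPM per kb was taken. *FARSA* stood for phenylalanine, and glutamate and proline, which share the cytosolic *EPRS*, were left out. The median was 3.01 and 3.09 in the TPC1 vehicle libraries and 2.65 and 2.81 in those of K1. The cytosolic gene was the higher in all 14 pairs in TPC1 vehicle libraries and in 13 in K1, where the exception was cysteine, with *CARS* below *CARS2* at log2 ratios of -1.74 and -1.60. In TPC1 the cysteine pair stood at 0.49 and 0.38.

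Across treatments the median of these ratios differed. In TPC1 it was 2.49 and 2.48 in nutlin, 3.16 and 3.16 in GSK2830371 and 2.91 and 3.03 in the combination, so the nutlin libraries lay below all others. In K1 it was 2.64 and 2.35, 2.59 and 2.51, and 2.79 and 2.86 in the same order, with nutlin and GSK2830371 overlapping each other just below the vehicle libraries and the combination overlapping the vehicle. The serine pair moved the most upward: *SARS* over *SARS2* went from 3.16 and 3.19 in TPC1 vehicle libraries to 5.78 and 5.80 in the combination. Summed over the 20 cytosolic genes, the level in TPC1 was 5096 and 5234 CPM in DMSO, 3987 and 4075 in nutlin, 5821 and 5827 in GSK2830371 and 6312 and 6439.8 in the combination, 4 groups that did not overlap. The 16 mitochondrial genes summed to 734 and 740.0 CPM in DMSO, 659.8 and 669.5 in nutlin, 733 and 717 in GSK2830371 and 601 and 589 in the combination in TPC1, lowest in the combination. In K1 the cytosolic sum was 3302 and 3689 CPM in DMSO, 3420.2 and 2987 in nutlin, 3652 and 3369 in GSK2830371 and 3954 and 3858 in the combination, with vehicle, nutlin and GSK2830371 libraries intermingled and the combination highest. The mitochondrial sum in K1 ran between 611 and 661 CPM over the 8 libraries. It was lowest in the combination there too, at 611 and 615 CPM, with no overlap with the other groups. In bulk RNA a lower level in each cell and fewer cells with a high level cannot be told apart.

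**Figure D1:**
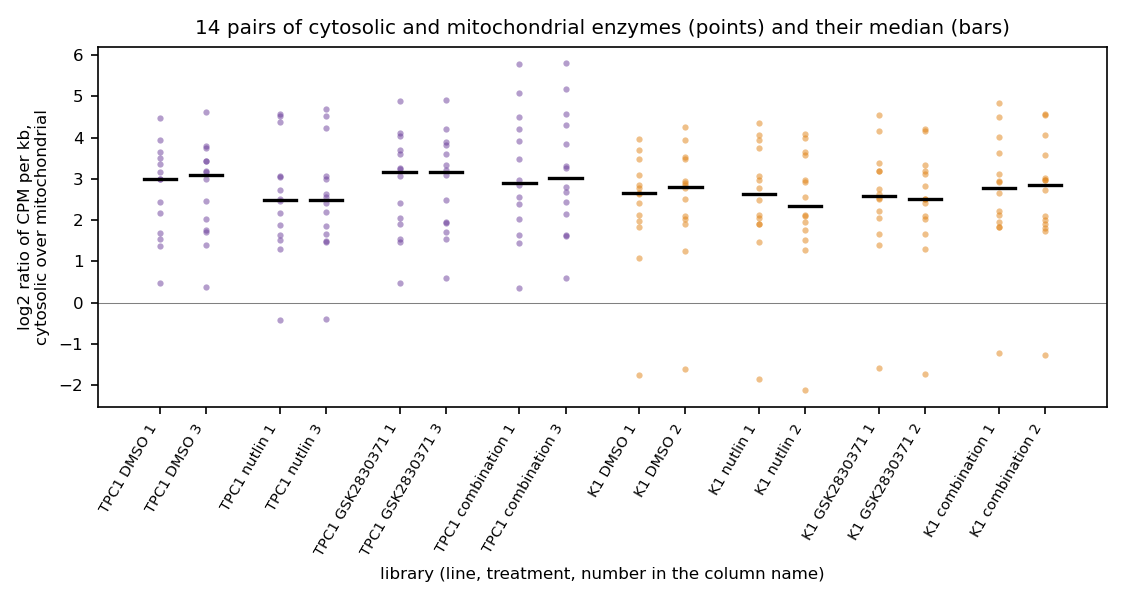
Each point is the log2 ratio of cytosolic to mitochondrial CPM per kb for 1 of 14 amino acids in 1 library of TPC1 or K1, and bars are medians. The TPC1 nutlin medians, 2.49 and 2.48, are the lowest of that line, and the lowest points in K1 are the cysteine pair.

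A gene is named as called, higher or lower, where the quasi-likelihood test of edgeR gave a p under 0.05 after Benjamini-Hochberg adjustment over all genes tested in that line, and its fold passed 1.5. Counts "at any fold" use the adjusted p alone. The comparisons within a line share libraries, so their counts are set side by side and not compared with each other by a test.

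Nutlin alone, which asks what MDM2 inhibition does without PPM1D inhibition, went with lower levels of cytosolic synthetases in TPC1. Of the 20 cytosolic genes 7 were called lower (35.0%, against 18.0% of all genes tested) and 1 higher (5.00%, against 17.5%), and their median log2 fold change was -0.43 beside 0.00 over all genes. At any fold 14 were lower (70%, against 28.3%) and 2 higher (10.0%, against 27.3%). *FARSB*, the β subunit of the phenylalanine enzyme, stood at 105 and 119 CPM in DMSO and 42.4 and 48.0 in nutlin, and its α subunit *FARSA* at 140.4 and 157 and 76.5 and 82.5. Every nutlin library was below every vehicle library for both subunits. Their log2 fold changes were -1.27 ± 0.11 (SE; adjusted p = 1.45e-05) for *FARSB* and -0.87 ± 0.10 (adjusted p = 8.11e-05) for *FARSA*, the lowest of the cytosolic genes. *MARS* (-0.77), *KARS* (-0.70), *YARS* (-0.67), *TARS* (-0.61) and *VARS* (-0.60), for methionine, lysine, tyrosine, threonine and valine, were the others called lower. Without DMSO library 3 the count of cytosolic genes called lower was 4.

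The exception in TPC1 was the serine enzyme. *SARS* stood at 182 and 203 CPM in DMSO and 344 and 353 in nutlin. Both nutlin libraries lay above both vehicle libraries, with a log2 fold change of 0.89 ± 0.08 (SE; adjusted p = 2.2e-05), and *SARS* was the 1 cytosolic gene called higher. *QARS*, the glutamine enzyme, was higher at any fold only, at 0.34 ± 0.07 (adjusted p = 0.00205).

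Mitochondrial synthetases had a median closer to 0 in TPC1 under nutlin. Of 16 genes 2 were called lower (12.5%, against 18.0%) and 0 higher (against 17.5%) by edgeR, with 2 higher at an unadjusted p under 0.05 and 0 by DESeq2. The median was -0.18, and at any fold 6 genes were lower (37.5%, against 28.3%) and 2 higher (12.5%, against 27.3%). Without DMSO library 3, 2 were called higher. *NARS2*, the asparagine enzyme, stood at 19.3 and 20.7 CPM in DMSO and 9.19 and 9.80 in nutlin, and *MARS2*, the methionine enzyme, at 14.1 and 13.1 and 7.60 and 6.97. The nutlin libraries were below the vehicle libraries for both. The log2 fold change was -1.04 ± 0.09 (SE; adjusted p = 9.6e-06) for *NARS2* and -0.87 ± 0.10 (adjusted p = 5.5e-05) for *MARS2*. The 2 genes higher at any fold were *PARS2*, at 0.56 ± 0.15 (adjusted p = 0.0129), and *CARS2*, at 0.44 ± 0.10 (adjusted p = 0.00436). *AIMP2*, a scaffold of the complex, was called lower.

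In K1 nutlin gave no call among the synthetases. edgeR called 0 of 20 cytosolic genes in either direction, beside 3.84% of all genes higher and 5.43% lower, while 1 was higher and 10 were lower at an unadjusted p under 0.05 and DESeq2 called 0. It called 0 of 16 mitochondrial genes, with 3 higher and 5 lower at an unadjusted p under 0.05 and 0 by DESeq2. At any fold 5 cytosolic genes were lower (25.0%, against 16.6%) and 0 higher (against 13.5%), with a median of -0.16. *FARSB* was again among the lower ones, at 87.5 and 93.7 CPM in DMSO and 64.4 and 66.3 in nutlin, with the nutlin libraries below and a log2 fold change of -0.46 ± 0.06 (SE; adjusted p = 3.84e-05). *SARS* stood at 164 and 199 CPM in DMSO and 226 and 191 in nutlin, groups that overlapped. Of mitochondrial genes 4 were lower and 1 higher at any fold, with a median of -0.13, and the higher one was *AARS2*, the alanine enzyme (0.47).

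**Figure D2:**
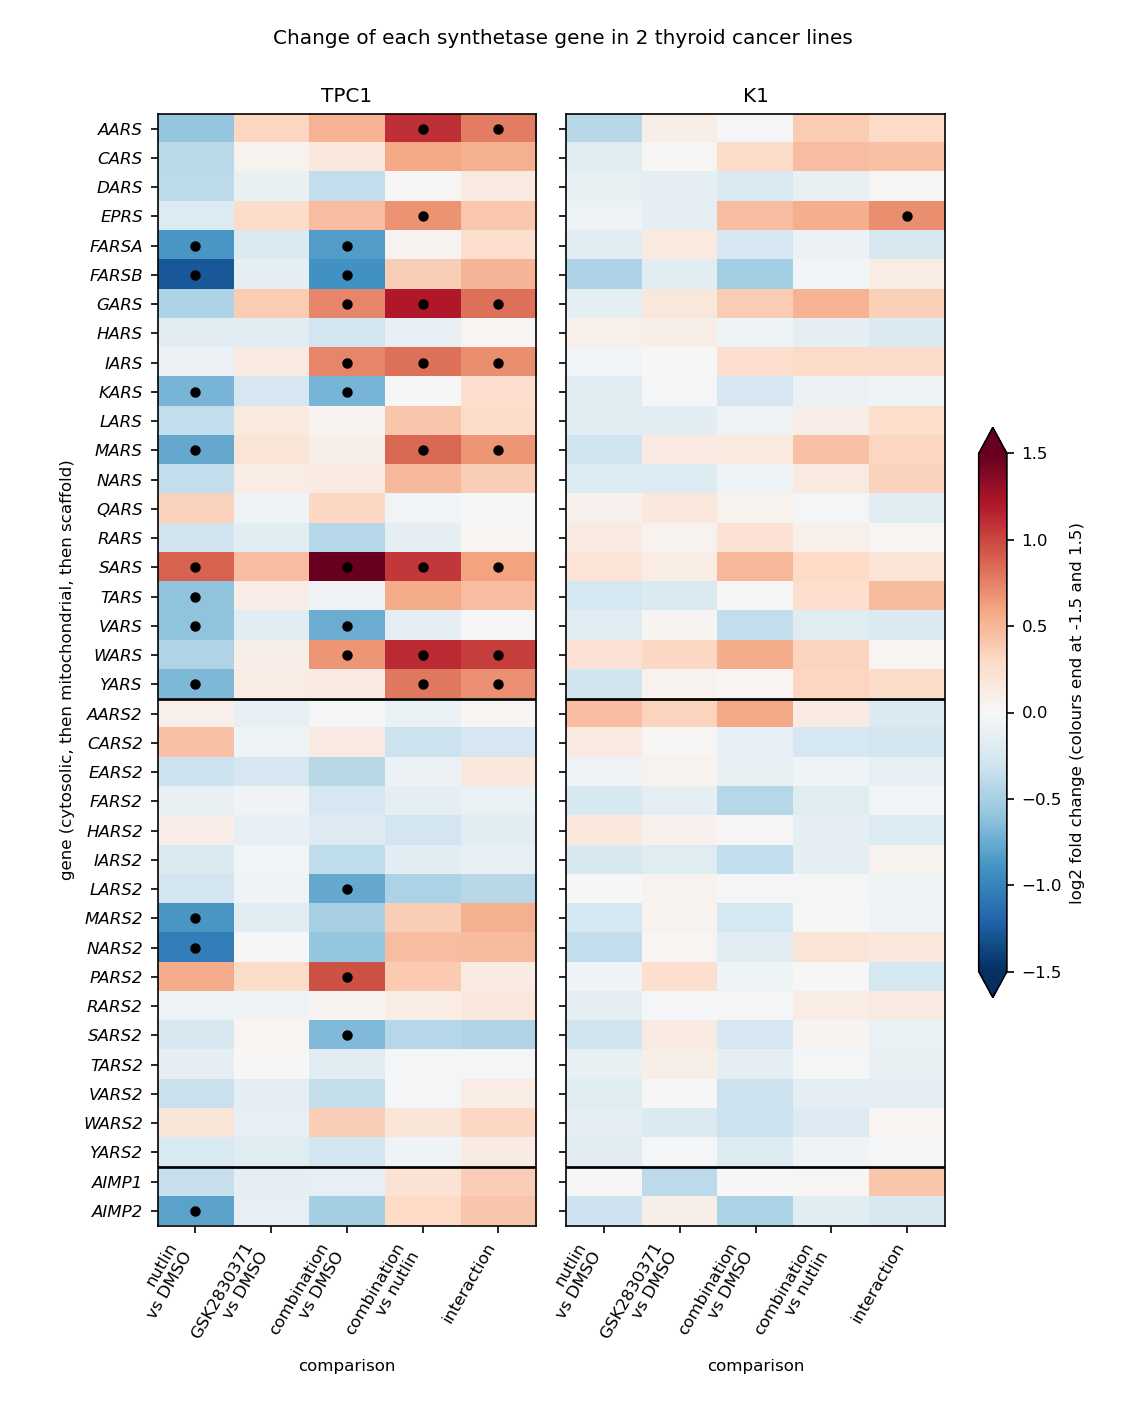
Heat map of log2 fold changes of the 38 genes (20 cytosolic, 16 mitochondrial, 2 scaffold) in 5 comparisons in TPC1 and K1. Colours end at -1.5 and 1.5 and black dots mark genes called, which are mostly cytosolic and in TPC1, with *SARS* higher in 4 of the 5 TPC1 comparisons.

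GSK2830371 alone, the effect of PPM1D inhibition without nutlin, gave no call among the 38 genes in either line. In TPC1 edgeR called 0 of 20 cytosolic genes (all genes: 0.720% higher, 0.681% lower), with 5 higher and 2 lower at an unadjusted p under 0.05 and 0 by DESeq2. Over all genes the 110 higher and 104 lower became 239 and 241 with the libraries paired by number. Both counts fell without any single GSK2830371, DMSO or nutlin library and rose without either combination library. At any fold 2 cytosolic genes were higher (10.0%, against 1.87%) and 0 lower (against 1.64%). These were *GARS*, at 338 and 368 CPM in DMSO and 464 and 485 in GSK2830371, and *SARS*, at 182 and 203 and 267 and 282. The treated libraries of both genes lay above the vehicle libraries, with log2 fold changes of 0.38 ± 0.08 (SE; adjusted p = 0.036) and 0.46 ± 0.08 (adjusted p = 0.0279). Of 16 mitochondrial genes in TPC1 0 were called by edgeR, 0 were higher and 1 was lower at an unadjusted p under 0.05, and DESeq2 called 0. The median was 0.09 for cytosolic and -0.06 for mitochondrial genes.

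In K1 edgeR called 0 cytosolic and 0 mitochondrial genes under GSK2830371 (all genes: 0.736% higher, 1.5% lower), and DESeq2 called 0. Over all genes the 117 higher and 238 lower became 60 and 57 after correction for GC content and length. The count of lower genes rose without GSK2830371 library 2 and fell without GSK2830371 library 1. At an unadjusted p under 0.05, 3 cytosolic genes were higher and 5 lower, and 2 mitochondrial genes were higher and 2 lower. At any fold 1 cytosolic gene was higher (5.00%, against 8.38%) and 2 lower (10.0%, against 10.8%), shares close to or below those of all genes. *AIMP1* was lower at any fold, with 29.4 and 33.0 CPM in DMSO and 22.8 and 24.3 in GSK2830371 and a log2 fold change of -0.40 ± 0.08 (SE; adjusted p = 0.00291). Its treated libraries were the lowest of that gene in K1.

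With both drugs, some cytosolic enzymes of TPC1 were called higher and some lower than in vehicle. Of 20 genes 4 were called higher (20%, against 22.5% of all genes) and 4 lower (20%, against 21.7%), which is near the share of all genes on either side. At any fold 7 were higher (35.0%, against 32.0%) and 7 lower (35.0%, against 32.1%), with a median of 0.11. *SARS* reached 705 and 731 CPM in the combination, from 182 and 203 in DMSO. Both combination libraries were above all others of TPC1, with a log2 fold change over DMSO of 1.95 ± 0.09 (SE; adjusted p = 1.1e-07). *GARS* (0.73), *IARS* (0.73) and *WARS*, the tryptophan enzyme (0.67), were also called higher.

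The phenylalanine subunits were among the genes called lower. *FARSB* stood at 54.5 and 60.8 CPM and *FARSA* at 76.0 and 84.9 in the combination, against 105 and 119 and 140.4 and 157 in DMSO. The combination libraries lay below the vehicle libraries, with log2 fold changes of -0.90 ± 0.11 (SE; adjusted p = 9.48e-05) and -0.83 ± 0.10 (adjusted p = 7.97e-05). *VARS* (-0.74) and *KARS* (-0.69) were the other cytosolic genes called lower, and *KARS* was not called without DMSO library 3.

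Of the mitochondrial genes in TPC1 1 was called higher (6.25%, against 22.5%) and 2 lower (12.5%, against 21.7%) in the combination against DMSO. At any fold 2 were higher (12.5%, against 32.0%) and 8 lower (50%, against 32.1%), with a median of -0.27. *PARS2* stood at 4.53 and 5.52 CPM in DMSO and 10.5 and 8.54 in the combination, the gene called higher, at 0.95 ± 0.15 (SE; adjusted p = 0.000476). Its combination libraries were the highest of the line, and per kb it was the weakest of the 38 genes under vehicle. *LARS2*, the leucine enzyme, stood at 66.9 and 61.8 CPM in DMSO and 38.5 and 34.6 in the combination, and *SARS2*, the serine enzyme, at 20.4 and 22.4 and 12.9 and 13.2. Both fell below every other group of TPC1, with log2 fold changes of -0.76 ± 0.08 (adjusted p = 3.26e-05) and -0.67 ± 0.10 (adjusted p = 0.000256), and *SARS2* was not called without DMSO library 3. For serine the cytosolic gene thus rose and the mitochondrial gene fell.

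In K1 the combination gave no call against DMSO among the synthetases. edgeR called 0 of 20 cytosolic genes (all genes: 7.62% higher, 8.09% lower), with 7 higher and 5 lower at an unadjusted p under 0.05 and 0 by DESeq2, and 0 of 16 mitochondrial genes, with 1 higher and 8 lower at an unadjusted p under 0.05 and 0 by DESeq2. Without DMSO library 2 or combination library 2, 2 and 1 cytosolic genes were called higher, and without DMSO library 1 or combination library 1, 1 mitochondrial gene was. At any fold 7 cytosolic genes were higher (35.0%, against 21.0%) and 5 lower (25.0%, against 22.2%). *WARS* stood at 131 and 169 CPM in DMSO and 236 and 215 in the combination, the largest rise of these, at 0.55 ± 0.12 (SE; adjusted p = 0.00226). Its combination libraries lay above the vehicle libraries, while those of nutlin and GSK2830371 lay between or among them. *FARSB* was lower at any fold here too (-0.51). Of the mitochondrial genes *AARS2* went from 43.2 and 39.0 to 60.3 and 65.5 CPM, higher at any fold at 0.58 ± 0.07 (adjusted p = 1.59e-05), with no overlap. Another 5 mitochondrial genes were lower at any fold.

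The combination against nutlin asks what PPM1D inhibition adds once MDM2 is inhibited, and here the 2 classes parted in TPC1. Of 20 cytosolic genes 8 were called higher (40.0%, against 6.46% of all genes) and 0 lower (against 5.66%), with 0 lower at an unadjusted p under 0.05 and 0 by DESeq2. At any fold 13 were higher (65.0%, against 13.2%) and 0 lower (against 12.9%), and the median was 0.52 beside 0.01 for all genes. Of 16 mitochondrial genes edgeR called 0, with 3 higher and 4 lower at an unadjusted p under 0.05 and 0 by DESeq2, and the median was -0.07. With DESeq2 size factors or library size alone as the scaling, the cytosolic median was 0.53 and 0.50.

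*GARS* stood at 338 and 368 CPM in DMSO, 249 and 250.1 in nutlin, 464 and 485 in GSK2830371 and 569 and 564 in the combination in TPC1. The combination libraries of *GARS* were the highest and the nutlin libraries the lowest, with no overlap between any of the 4 groups. Its log2 fold change over nutlin was 1.20 ± 0.08 (SE; adjusted p = 2.64e-05). *WARS* stood at 139 and 155 CPM in DMSO, 103 and 107 in nutlin, 157 and 166 in GSK2830371 and 231 and 219.6 in the combination, and *AARS*, the alanine enzyme, at 381 and 371 CPM in DMSO, 254 and 239 in nutlin, 494 and 479.8 in GSK2830371 and 551 and 488 in the combination. *WARS* had the same order of groups, and for *AARS* the combination and GSK2830371 libraries overlapped while nutlin was lowest. Over nutlin, the log2 fold changes were 1.12 ± 0.08 (adjusted p = 5.14e-05) for *WARS* and 1.09 ± 0.08 (adjusted p = 5.05e-05) for *AARS*.

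The remaining cytosolic genes called higher over nutlin in TPC1 were *SARS* (1.06), *MARS* (0.86), *IARS* (0.82), *YARS* (0.79) and *EPRS* (0.68), the last the joint enzyme for glutamate and proline. *CARS*, *TARS*, *NARS*, *LARS* and *FARSB*, for cysteine, threonine, asparagine, leucine and phenylalanine, were higher at any fold, between 0.37 and 0.58. The 7 that did not pass at any fold, *DARS*, *FARSA*, *HARS*, *KARS*, *QARS*, *RARS* and *VARS*, lay between -0.15 and 0.04. Of the 8 enzymes of the multi-synthetase complex 3 were called higher (*EPRS*, *IARS* and *MARS*, against 6.46% of all genes), and the median of the 8 was 0.22. Among mitochondrial genes, *NARS2* (0.46) and *MARS2* (0.37) were higher at any fold, and *LARS2* (-0.48), *SARS2* (-0.42), *CARS2* (-0.32) and *HARS2* (-0.29) lower. Within the 14 pairs described above, the cytosolic log2 fold change was the larger in 12, and the median difference over all 14 was 0.71.

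**Figure D3:**
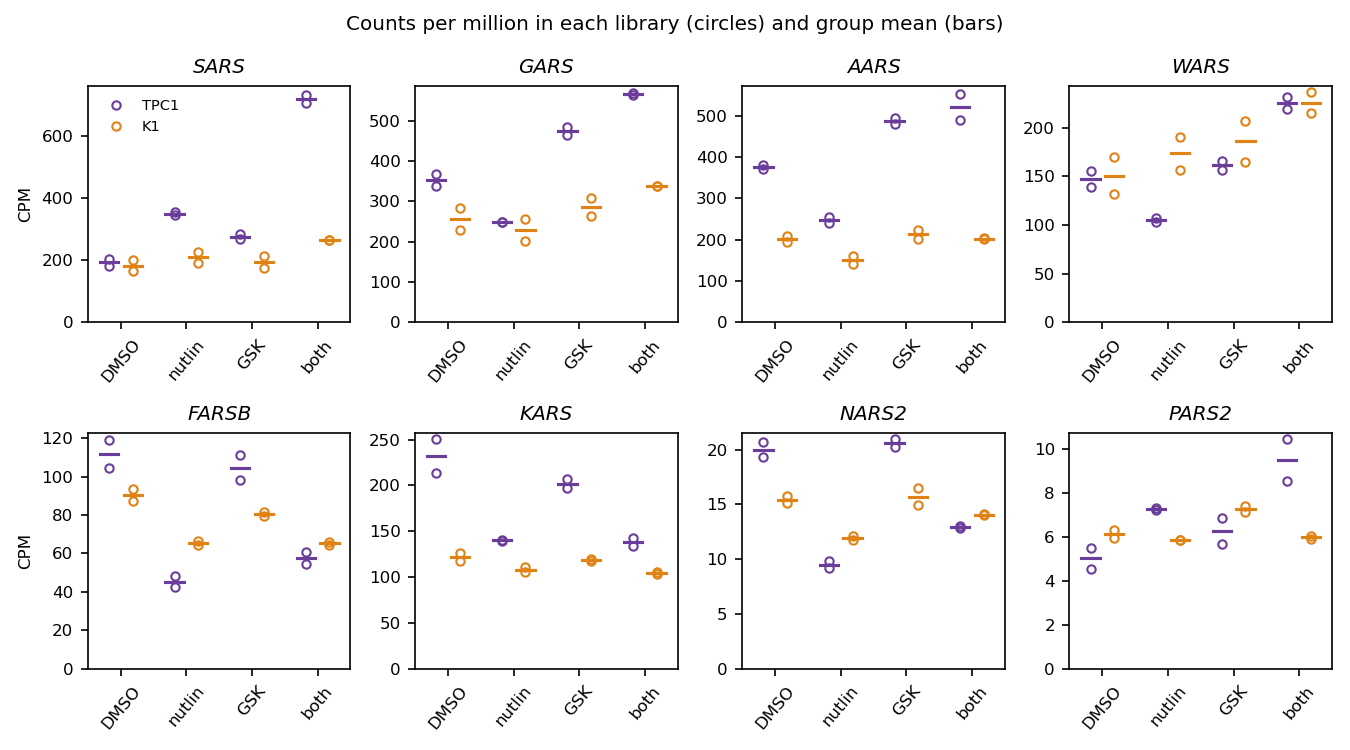
CPM of *SARS*, *GARS*, *AARS*, *WARS*, *FARSB*, *KARS*, *NARS2* and *PARS2* in each library (circles) with group means (bars), TPC1 in purple and K1 in orange. In TPC1 *GARS*, *AARS* and *WARS* are lowest in nutlin, and *SARS* is highest in the combination at 705 and 731 CPM.

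In K1 the same comparison gave smaller values in the same class. edgeR called 0 of 20 cytosolic genes (all genes: 1.16% higher, 1.52% lower), with 10 higher and 2 lower at an unadjusted p under 0.05 and 0 by DESeq2. Over all genes the 184 higher and 242 lower became 108 and 219 by DESeq2. Both counts fell without nutlin library 2 or either combination library. Without nutlin library 1, 4 cytosolic genes were called higher. Of 16 mitochondrial genes 0 were called by edgeR, with 1 higher and 3 lower at an unadjusted p under 0.05 and 0 by DESeq2. At any fold 8 cytosolic genes were higher (40.0%, against 5.89%) and 0 lower (against 6.53%), with a median of 0.20, while 1 mitochondrial gene, *CARS2* (-0.26), was lower and the mitochondrial median was -0.04. *EPRS* stood at 257 and 291 CPM in DMSO, 289.6 and 228 in nutlin, 245 and 246 in GSK2830371 and 385 and 389.5 in the combination in K1. Its combination libraries were the highest of the line, at 0.54 ± 0.08 (SE; adjusted p = 0.00134) over nutlin.

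*GARS* in K1 stood at 229 and 283 CPM in DMSO, 258 and 202 in nutlin, 309 and 263 in GSK2830371 and 339.6 and 339.6 in the combination. The combination libraries of *GARS* lay above all others, the other 3 groups overlapped, and the log2 fold change over nutlin was 0.52 ± 0.11 (adjusted p = 0.00744). *CARS* (0.47), *MARS* (0.44), *AARS* (0.38), *YARS* (0.33), *IARS* (0.29) and *TARS* (0.26) were the others higher at any fold. *WARS* (191 and 157 CPM in nutlin, 236 and 215 in the combination) and *SARS* (226 and 191 and 263 and 263) were separated in the same direction and did not pass, at 0.34 ± 0.12 (adjusted p = 0.0927) and 0.29 ± 0.10 (adjusted p = 0.0755). Over the 38 genes the log2 fold changes of the combination over nutlin in TPC1 and in K1 had a Pearson r of 0.814 and a Spearman rho of 0.752, 27 had the same sign and 28 were smaller in size in K1. This is a description across genes, which are not independent replicates.

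**Figure D4:**
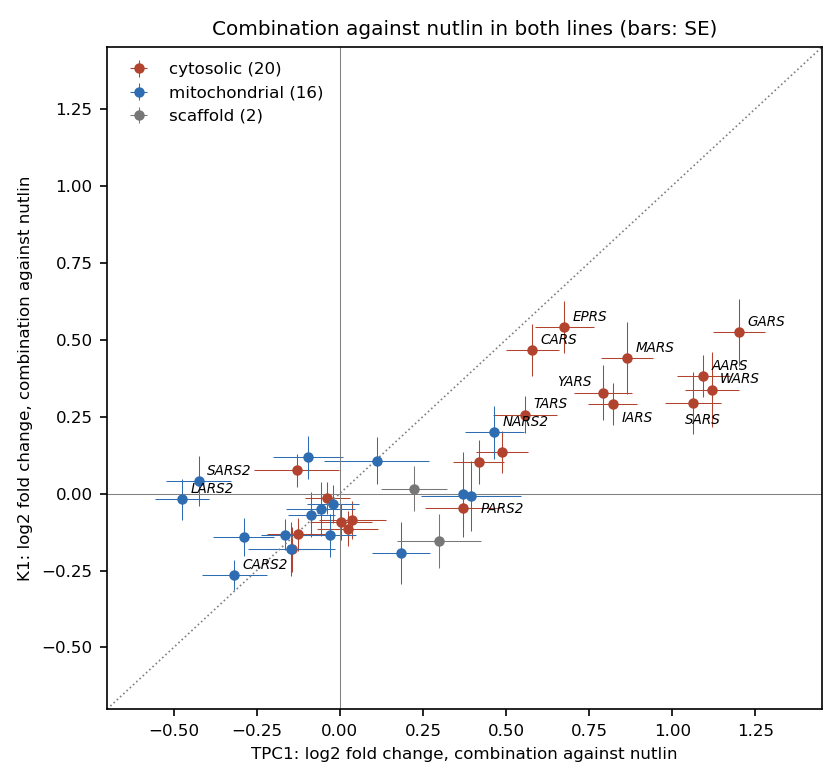
Log2 fold change of the combination over nutlin for the 38 genes, TPC1 on the horizontal and K1 on the vertical axis, with SE bars and colours for cytosolic, mitochondrial and scaffold genes. Most cytosolic genes with high values in TPC1, such as *GARS* at 1.20 and 0.52, lie under the dotted diagonal of equal change.

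Split by the promoter letters printed above, the cytosolic genes with TGATGNAA in their window all had positive values in this comparison in both lines. The lowest of them, at 0.49 in TPC1 and 0.14 in K1, lay under the medians of all 20 cytosolic genes, 0.52 and 0.20. In TPC1 the 7 with a match (*AARS*, *CARS*, *GARS*, *IARS*, *MARS*, *NARS* and *TARS*) had a median of 0.82, from 0.49 to 1.20. Of them 4 were called higher (against 6.46% of all genes). The 9 without a match had a median of 0.04, from -0.13 to 1.12, and 3 of them, *EPRS*, *SARS* and *WARS*, were called higher. Of the 4 without an entry, *YARS* was called. In K1 the medians were 0.38 with a match, from 0.14 to 0.52, and -0.01 without, where *EPRS* reached 0.54. Over all genes tested in TPC1, the 336 with a match had a median of 0.11 and the 11234 without one 0.00. Of these, 50 and 672 were called higher. In K1 the 361 with a match had a median of 0.03 and the 11608 without one 0.00, and 18 and 126 were called higher. *YARS2*, the 1 mitochondrial gene with a match, had -0.06 in TPC1 and -0.05 in K1, so the letters were found in genes of either behaviour.

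**Figure D5:**
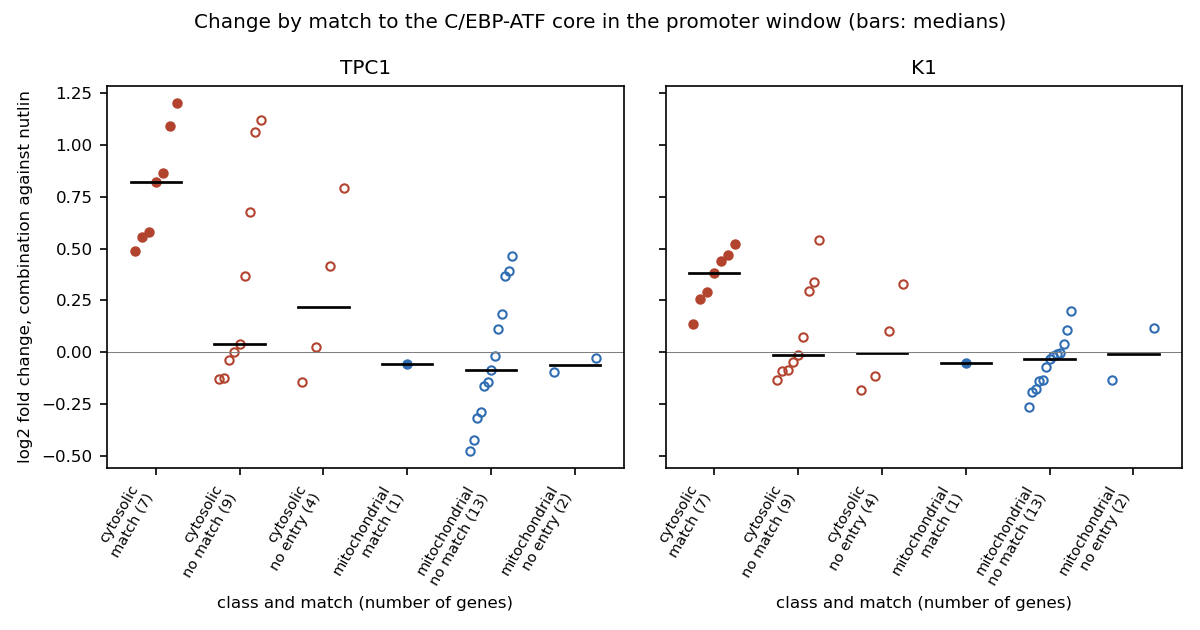
Log2 fold change of the combination over nutlin for cytosolic and mitochondrial genes with and without TGATGNAA in the promoter window, in TPC1 and K1, bars at medians. Cytosolic genes with a match have medians of 0.82 in TPC1 and 0.38 in K1.

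The interaction compares the log2 effect of both drugs with the sum of the 2 single effects, and a positive value means more RNA than that sum. In TPC1 7 of 20 cytosolic genes were called higher (35.0%, against 2.82% of all genes) and 0 lower (against 3.50%), with 0 lower at an unadjusted p under 0.05 and 0 by DESeq2, and all 20 values were above 0, or 16 of 20 when scaled by library size alone. At any fold 8 were higher (40.0%, against 3.84%) and 0 lower (against 4.74%), with a median of 0.43 beside 0.02 over all genes. The largest were *WARS*, at 1.04 ± 0.11 (SE; adjusted p = 0.00177), *GARS*, at 0.82 ± 0.11 (adjusted p = 0.00357), and *AARS*, at 0.77 ± 0.11 (adjusted p = 0.00509), whose library values are given above. *IARS* (0.70), *YARS* (0.68), *MARS* (0.67) and *SARS* (0.60) were also called, and *CARS* (0.53) passed at any fold. The count of 7 was 3 without nutlin library 1, 4 without nutlin library 3 and 4 without GSK2830371 library 1.

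Of the 16 mitochondrial genes edgeR called 0 for interaction in TPC1, with 3 higher and 2 lower at an unadjusted p under 0.05 and 0 by DESeq2, and 2 passed at any fold, both higher (12.5%, against 3.84%). The median was 0.07. In K1 *EPRS* was the 1 cytosolic gene called for interaction (5.00%, against 1.79% higher and 0.654% lower of all genes), at 0.69 ± 0.12 (SE; adjusted p = 0.0089). Its K1 library values, given above, were lowest in nutlin library 2 and highest in the combination, and it was not called without nutlin library 2 or combination library 2. After correction for GC content and length it was not called either, and *CARS* was. In these 3 fits the genes called higher in K1 fell from 284 to 13, 35 and 30, so the share of all genes is as unstable as the call. At any fold 4 cytosolic genes were higher (20%, against 5.24%) and 0 lower (against 2.83%): *EPRS*, *TARS* (0.48), *CARS* (0.44) and *NARS* (0.34). Of mitochondrial genes in K1 0 were called, with 0 higher and 3 lower at an unadjusted p under 0.05, 0 by DESeq2 and 1 lower at any fold.

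*KARS* and *GARS*, the genes that serve both compartments, behaved differently. *KARS* stood at 213 and 250.3 CPM in DMSO, 141 and 139.6 in nutlin, 197 and 206 in GSK2830371 and 134 and 143 in the combination in TPC1, where the nutlin and combination groups were both below DMSO and GSK2830371 and overlapped each other. Its log2 fold change over DMSO was -0.70 ± 0.09 (SE; adjusted p = 0.000198) in nutlin and -0.69 ± 0.09 (adjusted p = 0.000153) in the combination, and 0.00 ± 0.09 (adjusted p = 0.99) between these. *GARS*, in contrast, was at -0.47 in nutlin and 0.73 in the combination. In K1 *KARS* stood at 117 and 127 CPM in DMSO, 105 and 111 in nutlin, 119.5 and 118 in GSK2830371 and 106 and 103 in the combination, and no comparison called it.

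*HARS* and *HARS2*, the histidine enzymes, are neighbours read in opposite directions. *HARS* stood at 87.5 and 98.2 CPM in DMSO, 81.2 and 81.7 in nutlin, 84.7 and 87.8 in GSK2830371 and 69.2 and 77.9 in the combination in TPC1 and *HARS2* at 37.9 and 38.2 CPM in DMSO, 42.0 and 37.5 in nutlin, 38.7 and 33.8 in GSK2830371 and 32.4 and 31.8 in the combination. Neither was called in any comparison: under nutlin the log2 fold changes were -0.16 ± 0.09 (SE; adjusted p = 0.182) and 0.09 ± 0.09 (adjusted p = 0.409). In K1 *HARS* ran from 99.4 to 108 and *HARS2* from 31.8 to 35.9 CPM over the 8 libraries. The annotated genes overlap on opposite strands by 108 bases, and the counting used strand.

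The scaffold genes *AIMP1* and *AIMP2* hold the multi-synthetase complex together. *AIMP2* stood at 47.4 and 51.7 CPM in DMSO, 26.0 and 29.4 in nutlin, 43.5 and 50.7 in GSK2830371 and 30.4 and 36.9 in the combination in TPC1, with nutlin lowest and the combination libraries below DMSO and GSK2830371. Its nutlin change, -0.80 ± 0.13 (SE; adjusted p = 0.00053), was the 1 drug effect called among the scaffold genes, and in the combination it was at -0.50 ± 0.12 (adjusted p = 0.00607). *AIMP1* stood at 35.6 and 36.8 CPM in DMSO, 25.5 and 30.0 in nutlin, 32.8 and 34.9 in GSK2830371 and 30.7 and 33.4 in the combination, lowest in nutlin, at -0.34 ± 0.10 (adjusted p = 0.0152). Of the 8 complex enzymes 2, *KARS* and *MARS*, were called lower under nutlin in TPC1, near the 18.0% of all genes. In K1 *AIMP2* was lower at any fold in nutlin (-0.32) and in the combination (-0.47), at 26.5 and 29.5 CPM in DMSO, 22.2 and 22.5 in nutlin and 20.7 and 20.7 in the combination, and *AIMP1* was higher at any fold in the interaction (0.41).

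*EEF1E1*, another scaffold of the complex, is listed with the other tRNA charging genes since its symbol was outside the set. *EEF1E1* stood at 7.78 and 8.58 CPM in DMSO, 2.73 and 3.18 in nutlin, 6.87 and 7.66 in GSK2830371 and 3.50 and 3.58 in the combination in TPC1, lowest in nutlin, with -1.43 ± 0.14 (SE; adjusted p = 2.16e-05) in nutlin and -1.16 ± 0.13 (adjusted p = 5.24e-05) in the combination. In K1 it was called lower in nutlin, at -0.59, and in the combination, at -0.68, and the nutlin call was lost under several alternatives, among them DESeq2 and the correction for GC content and length. *XPOT*, which carries mature tRNA out of the nucleus and is also in the ATF4 pathway list below, stood in TPC1 at 250.4 and 223 CPM in DMSO, 115 and 117 in nutlin, 298 and 288 in GSK2830371 and 299.7 and 279 in the combination, was called lower in nutlin (adjusted p = 6.71e-06), and gained 1.34 ± 0.08 (adjusted p = 1.73e-05) between nutlin and the combination. Of the 10 tested of 11 such genes 4 were called lower under nutlin in TPC1 (against 18.0% of all genes), and 2 were called higher in the combination over nutlin (against 6.46%), *XPOT* and *PSTK*.

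Genes of the ATF4 pathway outside the synthetases, 31 in number with *XPOT* among them, gave larger shares than the synthetases in the combination over nutlin. There 25 of 31 were called higher in TPC1 (80.6%, against 6.46% of all genes, median 1.12) and 22 in K1 (71.0%, against 1.16%, median 0.81), beside 8 and 0 of the 20 cytosolic synthetases. GSK2830371 alone had 14 called higher in TPC1 (45.2%, against 0.720%), among them *ASNS* (1.04) and *CHAC1* (1.69), and 1 in K1 (against 0.736%). Under nutlin 11 were called lower (against 18.0%) and 7 higher (22.6%, against 17.5%) in TPC1, with a median of -0.39, so the share called lower there was like that of the cytosolic synthetases. The interaction was called higher for 17 in TPC1 (against 2.82%) and 11 in K1 (against 1.79%). These shares of all genes fell when some single libraries were left out, and that of K1 rose without others. The 1.16% for the combination over nutlin in K1 and the 0.720% for GSK2830371 in TPC1 also fell without some single libraries. With the libraries paired by number, the 0.720% rose. The study drew its attention to this pathway on the same libraries, so the list is no independent evidence of its direction.

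*ATF4* itself stood at 622 and 694 CPM in DMSO, 468 and 491 in nutlin, 822 and 878 in GSK2830371 and 987 and 1031 in the combination in TPC1 and 414 and 378 CPM in DMSO, 333 and 338 in nutlin, 429 and 464 in GSK2830371 and 759 and 803 in the combination in K1, highest in the combination in both. Its log2 fold change over nutlin was 1.09 ± 0.09 (SE; adjusted p = 8.62e-05) in TPC1 and 1.18 ± 0.06 (adjusted p = 3.02e-07) in K1. *CHAC1* stood at 26.7 and 27.4 CPM in DMSO, 10.1 and 9.54 in nutlin, 88.5 and 92.5 in GSK2830371 and 293 and 326 in the combination in TPC1, and *DDIT3*, a stress-induced transcription factor, at 4.12 and 4.76 CPM in DMSO, 13.3 and 13.7 in nutlin, 13.8 and 12.9 in GSK2830371 and 206 and 147 in the combination. Nutlin libraries were the lowest for *CHAC1* and vehicle libraries the lowest for *DDIT3*, and the combination was highest for both. Over nutlin, *ATF3* (2.84 in TPC1, 1.49 in K1), *DDIT3* (3.72, 0.81), *CHAC1* (5.00, 3.54), *ASNS* (2.16, 0.87) and *TRIB3*, a pseudokinase (1.59, 0.81), were called higher in both lines, and in K1 each lay above the 0.54 of *EPRS*, the highest of the synthetases there. *MARS* overlaps *DDIT3* on the opposite strand by 982 bases, and the counting used strand.

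Between the lines, vehicle levels of the cytosolic synthetases were lower in K1. In a fit of all 16 libraries and 16738 genes, 8 of 20 cytosolic genes were called lower in K1 than in TPC1 under DMSO (40.0%, against 21.2% of all genes) and 0 higher (against 25.0%), with 0 higher at an unadjusted p under 0.05 and 8 different by DESeq2, and at any fold 16 differed (80%, against 67.7%). The median was -0.47 beside 0.02 for all genes, and 18 of 20 values were below 0. *CARS* stood at 146 and 159 CPM in TPC1 and 66.0 and 73.2 in K1, with a log2 difference of -1.14 ± 0.10 (adjusted p = 1.9e-08), the lowest of them, and *AARS*, *EPRS*, *IARS*, *KARS*, *MARS*, *NARS* and *YARS* were the others called. The mitochondrial counterpart of *CARS* went the other way, with *CARS2* at 69.9 and 82.3 CPM in TPC1 and 148 and 149 in K1, at 0.96 ± 0.08 (adjusted p = 3.27e-08). Of 16 mitochondrial genes 3, *IARS2*, *RARS2* and *WARS2*, were called lower (18.8%, against 21.2%) and *CARS2* higher (6.25%, against 25.0%). The scaffold gene *AIMP2* was called lower, at -0.83 ± 0.12 (adjusted p = 1.12e-05). Line, medium and anything else that differed between the libraries of the lines cannot be told apart in these differences.

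The effects of the drugs were then tested for a difference between the lines. For nutlin against DMSO 3 cytosolic genes were called with a higher value in K1 (against 8.73% of all genes) and 1 with a lower value (against 10.5%), and 7 differed at any fold (35.0%, against 31.2%). These 4 calls were 2 without TPC1 DMSO library 3. For the combination against DMSO 1 was called higher (against 11.9%) and 1 lower (against 13.8%), and 9 differed at any fold (45%, against 38.5%). These 2 calls were 1 without TPC1 combination library 1 or DMSO library 3 and 4 without TPC1 combination library 3. For the combination against nutlin 0 were called higher and 4 lower in K1 (20%, against 2.56% of all genes in each direction), and 5 differed at any fold (25.0%, against 8.75%), with 0 higher at an unadjusted p under 0.05 and 4 different by DESeq2. These 4 were *AARS*, *GARS*, *SARS* and *WARS*, and the median difference of the 20 genes was -0.30. The count was 2 without K1 combination library 2, K1 nutlin library 1 or TPC1 nutlin library 1. No mitochondrial gene was called in that comparison by edgeR, with 2 higher and 1 lower at an unadjusted p under 0.05 and 0 by DESeq2. For the interaction 1 cytosolic gene, *WARS*, was called lower in K1 (5.00%, against 1.19%) and 0 higher (against 1.95%), with 0 higher at an unadjusted p under 0.05 and 1 different by DESeq2. That call was lost when most single libraries were left out in turn, and when scaling used library size alone.

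Overlap between annotated genes was common among the members on opposite strands and rare on the same strand. No stretch of 50 bases was shared between the transcripts of the cytosolic and mitochondrial gene in any of the 14 pairs. On the same strand, 4 of the 38 overlap another gene: *HARS* with *DND1* by 542 bases, *IARS* with *SNORA84* by 133, *EARS2* with *GGA2* by 1242 and *HARS2* with *ZMAT2* by 626, and their counts carry that uncertainty. On the opposite strand 15 of the 38 overlap another gene, and the counting used strand.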

How the data were processed

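Gene counts of 16 libraries (2 lines, 4 treatments, 2 libraries each) were used as the authors deposited them. By the study's methods and the submitters' processing notes, reads of strand-specific poly(A)+ libraries were aligned to GRCh37/hg19 with TopHat2 2.0.13 and Bowtie2 2.2.3.0, reads of low mapping quality were removed, and HTSeq 0.6.1 counted the rest per gene with strand. CPM was computed here from these deposited counts by scaling each library to its total.

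Genes that passed 0.1 CPM in 2 or more of a line's libraries were tested with edgeR 4.0.16 (quasi-likelihood test, TMM scaling, Benjamini-Hochberg adjustment over all genes tested) in R 4.3.3, with the 4 treatments of a line in 1 fit. Calls needed an adjusted p under 0.05 and a fold past 1.5. Differences between lines came from 1 fit of all 16 libraries. The dispersion shared by all genes came to 0.00828 for TPC1 and 0.00273 for K1. The SE of single synthetases was smaller in K1 for some, such as *FARSB* under nutlin. It was larger in K1 for others, such as *GARS* and *WARS* in the combination over nutlin. TMM factors ran from 0.961 to 1.04 and from 0.981 to 1.03. The alternatives were DESeq2 1.42.0 (size factors and Wald test), library size alone, other filters on low counts, the compared groups alone, a replicate block, a correction for GC content and length, no minimum fold and leaving out each library. The scripts were tested on simulated data.

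The labels number the replicates alike in each group, and libraries of one number were checked for shared deviations from their group means. In TPC1 the correlation was 0.496 to 0.696 over 12303 genes in all 6 pairs of treatments, so the numbers pair the libraries there by the data. The design was fitted without the block.

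The members and gene lists were chosen with earlier results of these data known. Values in full were given to the 3 cytosolic and 3 mitochondrial genes with the largest change among those called in each of the 5 comparisons within a line, to *GARS*, *KARS*, *WARS*, *HARS*, *HARS2*, *AIMP1* and *AIMP2*, and to ATF4, *ATF3*, *DDIT3*, *CHAC1*, *ASNS*, *TRIB3*, *XPOT*, *EEF1E1*, *CDKN1A* and MDM2, of which *ATF3*, *ASNS*, *TRIB3* and MDM2 are given by log2 fold changes alone. Other genes named, such as *PSTK* and those in K1 comparisons without calls, were chosen after their values were seen, and not every gene of the planned lists is reported. Transcript lengths are those of the canonical transcripts of GENCODE v44 lifted to GRCh37, matched by current symbol or synonym (*AARS* is now AARS1), where all 38 genes matched. Promoter sequences are those of RefSeq on GRCh38.p14, where 6 of the 38 had no entry.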

Additional observations from a re-analysis of the deposited data

Results flagged for a closer look

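The drug effects on 11 synthetase genes differed between the lines by the test of the difference itself, the quasi-likelihood test of edgeR on all 16 libraries, after Benjamini-Hochberg adjustment. Values are log2 fold changes in K1 minus those in TPC1, with their SE, and no explanation was tested. Of the 38 genes 4 were called higher in K1 (against 8.73% of all genes) and 2 lower (against 10.5%) for nutlin, and 2 higher (against 11.9%) and 3 lower (against 13.8%) for the combination against DMSO. These counts are near or below the shares of all genes, so they concern single genes. For the combination against nutlin 4 were lower (against 2.56%) and for the interaction 1 (against 1.19%).

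Under nutlin against DMSO the difference was 0.67 ± 0.13 for *FARSA* and 0.78 ± 0.14 for *FARSB*, the phenylalanine subunits, whose fall in TPC1 was larger. It was 0.63 ± 0.18 for *WARS* and 0.64 ± 0.13 for *NARS2*. *SARS* (-0.71 ± 0.16) and *PARS2* (-0.64 ± 0.20) had lower values in K1. The 4 cytosolic calls were 2 without TPC1 DMSO library 3, and the 2 mitochondrial calls were 1 without any of 4 single libraries.

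In the combination against DMSO, *SARS* had the largest difference of the synthetases, -1.47 ± 0.16. The mitochondrial genes *PARS2* (-1.03 ± 0.20) and *WARS2* (-0.72 ± 0.14) were also lower in K1, while *RARS*, the arginine enzyme (0.61 ± 0.15), and *LARS2* (0.72 ± 0.10) were higher. The 2 cytosolic calls were 1 without TPC1 combination library 1 or TPC1 DMSO library 3. *WARS2* stood at 18.2 and 18.2 CPM in DMSO and 21.8 and 23.5 in the combination in TPC1, and at 10.7 and 11.6 CPM in DMSO against 8.63 and 9.59 in the combination in K1, so the libraries separated in opposite directions. *RARS* went from 117 and 131 CPM in DMSO to 78.7 and 99.1 in the combination in TPC1 and from 114 and 123 to 141 and 141 in K1, again in opposite directions.

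In the combination against nutlin, *AARS* (-0.70 ± 0.11), *GARS* (-0.67 ± 0.16), *SARS* (-0.76 ± 0.16) and *WARS* (-0.77 ± 0.18) had smaller rises in K1. The count of these 4 cytosolic calls was 2 without K1 combination library 2, K1 nutlin library 1 or TPC1 nutlin library 1. *WARS* also differed in the interaction, by -1.01 ± 0.25, a call lost with library size alone and without any of 11 of the 16 libraries.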

How the results depend on the processing

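No single-gene call reversed. Of 4337 single-gene values under alternatives 4060 kept their side of the threshold, 101 no longer passed and 176 newly passed. Direction was compared only where the main fit or the alternative made a call. The alternatives include the rule without a minimum fold, under which genes pass by the adjusted p alone. No scaling moved the median of all genes by over 0.1. With 2 libraries a group, each left-out library leaves an arm with 1 library that is assumed to vary like the others, and the causes of the changes below were not tested. Some genes of low level, such as *PARS2*, have wide errors.

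The replicate block, the pairing by library number, changed no class count in TPC1: under nutlin it gave 7 cytosolic genes lower and 2 mitochondrial genes lower, in the combination against nutlin 8 cytosolic genes higher and in the interaction 7. Over all genes in TPC1 the block raised the calls under GSK2830371 from 110 to 239 higher and from 104 to 241 lower, and those of the interaction from 431 to 714 higher and from 534 to 859 lower, so the shares of all genes in the report would be larger with it. Those shares also fell in some fits: in TPC1 the interaction had 152 genes higher and 193 lower without nutlin 3, and GSK2830371 had 14 and 8 without GSK2830371 3. In K1 the interaction had 284 higher and 104 lower, against 30 and 38 after correction for GC content and length and 404 and 77 with library size alone. Its count of higher genes fell without some single libraries, among them combination 2 and nutlin 2. It rose without others, among them GSK2830371 2 and nutlin 1. GSK2830371 in K1 had 117 higher and 238 lower, against 60 and 57 after the correction for GC content and length. Its count of lower genes rose without GSK2830371 2 and fell without GSK2830371 1. The combination against nutlin in K1 had 184 higher and 242 lower, against 108 and 219 by DESeq2. Both of these counts fell without nutlin 2 or either combination library. In K1, where the correlation between same-numbered libraries ran from -0.357 to 0.376 over 12546 genes, so that they share only a number, the block gave 1 cytosolic gene higher in the interaction, as without it.

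Without a minimum fold, the cytosolic counts higher and lower in TPC1 were 2 and 14 under nutlin, 2 and 0 under GSK2830371, 7 and 7 in the combination against DMSO and 13 and 0 against nutlin, and the mitochondrial ones 2 and 6, 0 and 0, 2 and 8, and 2 and 4, with 2 higher in the interaction. In K1 the cytosolic counts were 0 and 5, 1 and 2, 7 and 5, and 8 and 0, with 4 higher in the interaction, and the mitochondrial ones 1 and 4, 1 and 1, 1 and 5, and 0 and 1, with 1 lower in the interaction. Between the lines, 16 cytosolic and 11 mitochondrial genes differed in DMSO level, 7 and 5 in the nutlin effect, 9 and 6 in the combination against DMSO, and 2 mitochondrial genes in the combination against nutlin.

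With library size alone, K1 had 1 cytosolic and 1 mitochondrial gene higher in the combination against DMSO, and 0 cytosolic genes differed between the lines in the interaction. *SARS* was not called for interaction in TPC1 under this scaling. The correction for GC content and length gave 1 mitochondrial gene higher in K1 in the combination against DMSO and ended the *EPRS* interaction call in K1, where *CARS* was called instead. With the replicate block as well, it gave 1 mitochondrial gene higher in TPC1 under nutlin and ended the calls of *TARS* under nutlin and *SARS* in the interaction, where *FARSB* was called instead.

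Leaving out each library in turn gave, in TPC1, 4 to 7 cytosolic genes lower (4 without DMSO 3) and 0 to 2 mitochondrial genes higher (2 without DMSO 3) under nutlin, 1 to 3 mitochondrial genes lower in the combination against DMSO (1 without DMSO 3) and 3 to 8 cytosolic genes higher in the interaction (3 without nutlin 1, 4 without nutlin 3 or GSK2830371 1). In K1 it gave 0 to 2 cytosolic genes higher in the combination against DMSO (2 without DMSO 2, 1 without combination 2), 0 to 1 mitochondrial (1 without DMSO 1 or combination 1), 0 to 4 cytosolic against nutlin (4 without nutlin 1) and 0 to 1 in the interaction (0 without combination 2 or nutlin 2). Between the lines, cytosolic counts ran from 2 to 5 for nutlin (2 without TPC1 DMSO 3), 1 to 4 for the combination against DMSO (1 without TPC1 combination 1 or TPC1 DMSO 3, 4 without TPC1 combination 3), 2 to 5 against nutlin (2 without K1 combination 2, K1 nutlin 1 or TPC1 nutlin 1) and 0 to 1 for the interaction. That interaction call, *WARS*, was lost without K1 DMSO 1, nutlin 1, GSK2830371 1, combination 1 or combination 2, or TPC1 DMSO 3, nutlin 1 or 3, GSK2830371 1 or 3, or combination 3. The mitochondrial count for nutlin ran from 1 to 3 (1 without K1 DMSO 1, K1 nutlin 1, TPC1 DMSO 1 or TPC1 nutlin 3).

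In TPC1 the interaction calls of *SARS*, *MARS*, *YARS* and *IARS* and the nutlin calls of *TARS*, *KARS*, *YARS* and *VARS* were each lost without at least 1 library: for nutlin, *KARS* and *YARS* without DMSO 3, *TARS* without DMSO 3 or nutlin 1, and *VARS* without nutlin 3. For the interaction, *IARS* was lost without nutlin 1, *MARS* without GSK2830371 1 or nutlin 1 or 3, *YARS* without these or DMSO 3, and *SARS* without these, GSK2830371 3 or combination 3.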

Other observations

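At any fold 4 of 5 cytosolic elongation factors were higher under nutlin in TPC1 (against 27.3% of all genes), where 14 of 20 cytosolic synthetases were lower (against 28.3%), and no test compared the 2 groups. Of these elongation factor genes, which move charged tRNA and the ribosome along, 2 were called higher under nutlin with the minimum fold (against 17.5%), *EEF1A1* (0.65) and *EEF2* (0.75), where the cytosolic synthetases had a median of -0.43, and 3 in the combination against DMSO (against 22.5%), with *EEF1D* (0.77). *EEF2* stood at 3896 and 4032 CPM in DMSO, 6468 and 6538 in nutlin, 4261 and 4433 in GSK2830371 and 8519.7 and 8890.3 in the combination in TPC1, with no overlap between the combination and the other groups. In K1 edgeR called 0 of the 5 in these comparisons, with 0 at an unadjusted p under 0.05 for nutlin and 1 higher for the combination, and DESeq2 called 0 and 0.

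Among 77 genes of mitochondrial ribosomal proteins, 14 were called lower (against 18.0% of all genes) and 2 higher (against 17.5%) in TPC1 under nutlin, with a median of -0.34, and 14 lower (against 21.7%) and 2 higher (against 22.5%) in the combination against DMSO, with a median of -0.33. The share called lower was thus near or below that of all genes, while at any fold 44 were lower under nutlin (against 28.3%) and 43 in the combination (against 32.1%), which is above it. The combination against nutlin had a median of -0.02, like the -0.07 of the mitochondrial synthetases. In K1 the medians were -0.05 under nutlin and -0.09 in the combination. Of 10 mitochondrial translation factors 1 was called higher under nutlin in TPC1, with a median of -0.22, and 1 higher and 2 lower in the combination against DMSO, also near or below the shares of all genes. The elongation factor genes named here were picked after their values had been seen.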
